A study of Mus musculus with 4 samples.

Results

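Ionotropic and metabotropic receptors for glutamate and GABA were examined at the transcript level in cortical neural stem cell cultures of the C57BL/6J mouse. The receptor subunits were taken by symbol, as every row named Gria1 to Gria4, Grik1 to Grik5, Grin1, Grin2a to Grin2d, Grin3a, Grin3b, Gabbr1, Gabbr2 or any delta (Grid), metabotropic (Grm) or GABA-A subunit (Gabra, Gabrb, Gabrg, Gabrd, Gabre, Gabrp, Gabrq, Gabrr). This gave 47 genes of 24421, of which 18 encode ionotropic glutamate receptor subunits, 8 metabotropic glutamate receptors, 19 GABA-A subunits and 2 GABA-B subunits. The rule goes by name and family alone, but the set was taken up with earlier results of these data known.

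One group of cells carried Prrc2b alleles flanked by loxP sites (genotype Prrc2bf/f; Nestin-Cre) together with Cre under regulatory sequence of Nestin, a gene of neural progenitors. The control cells (genotype Prrc2bf/f) carried the same floxed alleles without Cre. Cerebral cortex was taken at embryonic day 17 in both groups and the dissociated cells were grown for 1 day with bFGF and EGF, and each group has 2 libraries of poly(A) RNA. Which exon is floxed, and how many embryos went into a library, is not stated in the labels. The replicates may therefore be technical, and the p-values reflect no more than the spread among 4 libraries.

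Glutamate is the main excitatory transmitter of the brain. AMPA, kainate and NMDA receptors are cation channels built from subunits of the Gria, Grik and Grin families, and the metabotropic receptors (Grm) act through G proteins. GABA opens the chloride channels of the GABA-A family, which assemble from alpha, beta and gamma or other subunits, and acts on the G protein-coupled GABA-B receptor, a pair of Gabbr1 and Gabbr2. In embryonic brain the NMDA subunit Grin2b and the GABA-A subunit Gabra2 are prominent. Grin2a, Grin2c and Gabrb2 become more prominent after birth. Progenitors and glia carry several of these receptors as well as neurons, Grm3 and Grm5 in astrocytes among them.

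Gene totals ran from 25936794 to 28263272 counts per library. Prrc2b itself stood at 575 and 573 CPM (counts scaled to library size) in the libraries labelled knockout, against 588 and 594 CPM in control libraries (log2 fold change -0.04 ± 0.02, edgeR quasi-likelihood test, adjusted p = 0.134), so its summed counts give no check of the label. Of the Y chromosome, Kdm5d, Uty, Eif2s3y and Ddx3y had 0 counts in both libraries labelled knockout and 180 to 667 counts in control libraries, while Xist stood at 2209 and 2119 CPM in the libraries labelled knockout, against 1673 and 1615 CPM in control libraries. Control libraries thus held both Y-linked transcripts and Xist, and may mix cells of both sexes, which was not tested. Genotype, Cre and sex cannot be told apart in any comparison below, which bears most directly on the 4 X-linked receptor genes Gria3, Gabra3, Gabre and Gabrq. Across all genes 2263 were higher and 2711 lower of 15012 tested (adjusted p under 0.05), and 2939 higher and 2288 lower with upper quartile scaling.

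Of the 47 receptor genes 41 were counted often enough to be tested. In the libraries labelled knockout 10 of these rose, 8 fell and 23 did not pass the threshold, so that 43.9% were called, against 33.1% of all genes tested. The shares by direction were 24.4% higher against 15.1% of all genes and 19.5% lower against 18.1% of all genes. Their median log2 fold change was 0.01, against 0.00 (0.0047) over all genes. Groups did not overlap in CPM for 26 of the 41 (63.4%), against 64.9% of all genes. Most called changes were modest: 15 of the 18 genes changed by under 1.5-fold and 1, the NMDA subunit gene Grin2c, by more than 2-fold. With DESeq2, which called 2523 of 15155 tested genes (972 higher and 1551 lower), 3 receptor genes rose and 5 fell of 42 tested. The excess over all genes was not tested with either method.

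**Figure D1:**
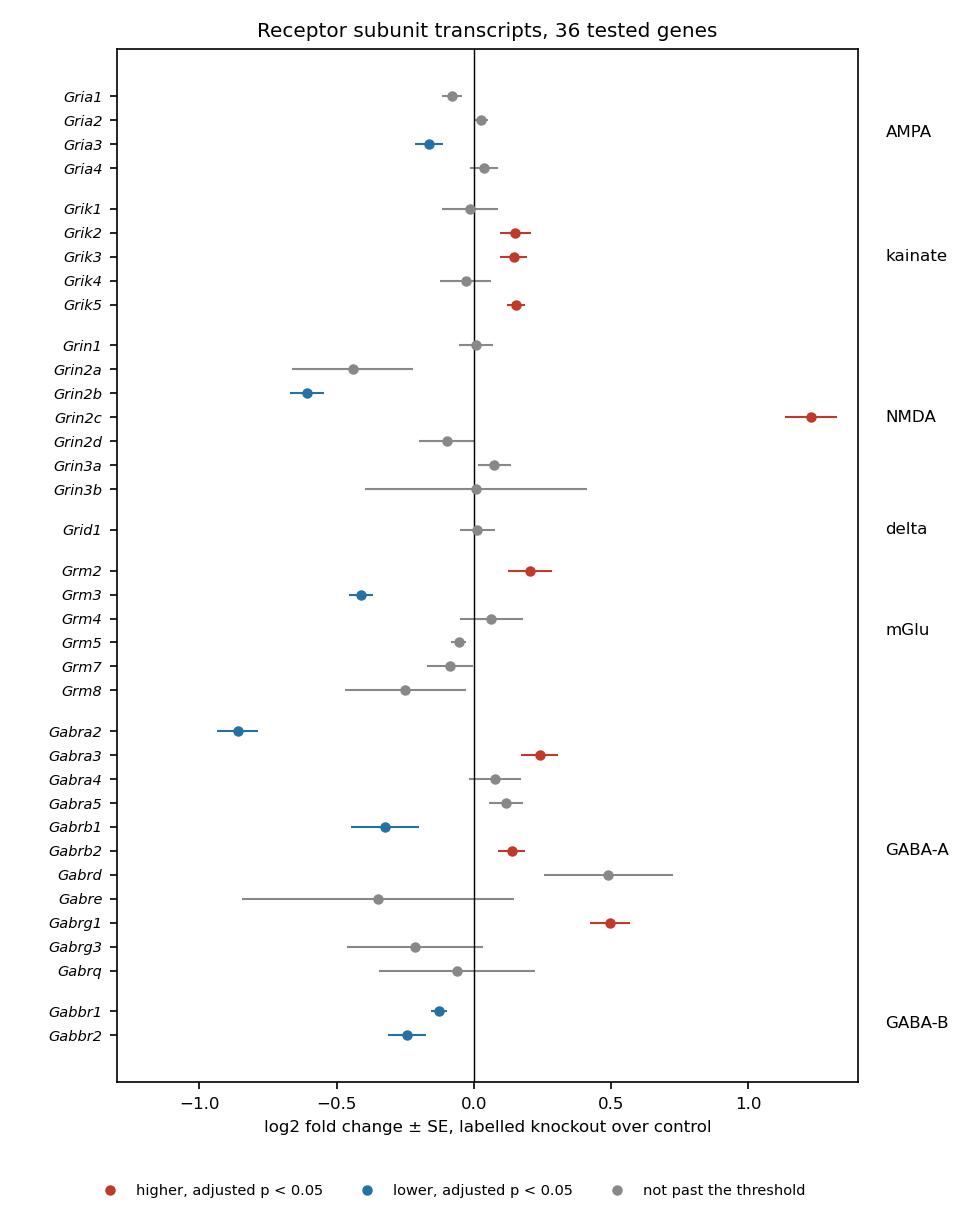
The plot shows the log2 fold change (x axis, libraries labelled knockout over control, bars ± SE) of 36 tested receptor genes, grouped by family on the y axis. Grin2c lies farthest to the right at 1.23 and Gabra2 farthest to the left at -0.86, while the AMPA genes lie between -0.16 and 0.04.

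The sequences just upstream of Grin2c, which rose most, and of Gabra2 and Gabrg1, neighbouring genes on chromosome 5 that moved in opposite directions, are shown as context for those results. Each window runs from 250 bases before to 50 bases after the annotated start (RefSeq, build GRCm38.p6), is written 5′ to 3′ on the gene's own strand, and has each GC box (GGGCGG) and CCAAT box (CCAAT) in capitals, on either strand. The windows lie on the minus strand at chr11:115267194-115267493 for Grin2c, chr5:71095800-71096099 for Gabra2 and chr5:70842568-70842867 for Gabrg1.
Grin2c: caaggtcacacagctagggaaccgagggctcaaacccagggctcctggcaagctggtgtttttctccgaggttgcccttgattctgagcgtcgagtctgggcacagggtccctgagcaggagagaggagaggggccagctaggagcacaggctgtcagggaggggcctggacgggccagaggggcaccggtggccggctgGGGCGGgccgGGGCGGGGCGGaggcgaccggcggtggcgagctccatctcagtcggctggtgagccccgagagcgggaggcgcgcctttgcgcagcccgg
Gabra2: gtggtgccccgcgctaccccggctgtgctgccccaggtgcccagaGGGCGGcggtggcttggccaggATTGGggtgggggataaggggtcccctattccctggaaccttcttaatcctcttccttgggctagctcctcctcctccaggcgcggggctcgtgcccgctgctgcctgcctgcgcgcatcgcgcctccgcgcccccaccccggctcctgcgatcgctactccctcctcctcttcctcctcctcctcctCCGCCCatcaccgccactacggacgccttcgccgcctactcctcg
Gabrg1: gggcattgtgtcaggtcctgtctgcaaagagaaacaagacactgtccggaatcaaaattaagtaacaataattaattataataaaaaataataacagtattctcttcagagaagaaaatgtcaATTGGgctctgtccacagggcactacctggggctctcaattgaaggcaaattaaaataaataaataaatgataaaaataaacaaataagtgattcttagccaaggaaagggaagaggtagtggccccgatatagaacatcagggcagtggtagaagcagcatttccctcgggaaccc

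The Grin2c window held 3 GC boxes, a pair of which overlap by 1 base, and the Gabra2 window 2 GC boxes and 1 CCAAT box. Neither held a TATA box (TATAAA), and both had a GC content of 70.0%, with 22 CpG dinucleotides in Grin2c and 25 in Gabra2. The Gabrg1 window had a GC content of 38.3%, 3 CpG dinucleotides, 1 CCAAT box and 1 STAT-type motif (TTCNNNGAA), and no GC box. Over all 32851 windows of this length the median GC content was 52.7% and the median CpG count 7. A GC box occurred in 35.7% of all windows and in 19 of the 39 windows that matched 32 of the receptor genes, and a CCAAT box in 37.4% of all windows and 16 of the 39. Some genes matched more than 1 window, and overlapping windows were counted separately. Those of Gabra3 count 2 times for the CCAAT box and for TATAAA, and those of Grm7 2 times for the GC box. Another 6 motifs were searched on both strands. TATAAA was in 13.6% of all windows and 4 of the 39, the E-box CAGCTG in 16.3% and 1, and TTCNNNGAA in 8.30% and 3 (Gabrg1, Gabrb1 and Gabra6). The cyclic AMP response element TGACGTCA (1.79% of all windows) was in 0 of the 39. A core of the RE1 element (0.0365%) and the palindromic NF1 motif (0.0365%) were also in 0. These last are too rare for 39 windows to tell receptor genes from others. Any part of RE1 in the receptor results was not tested. Rest, which encodes the factor that binds RE1 and was added outside the rule for naming, was lower, at 32.6 and 30.8 CPM in the libraries labelled knockout, against 37.7 and 36.4 CPM in control libraries (-0.22 ± 0.06, edgeR, adjusted p = 0.0016).

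Of the 18 ionotropic glutamate receptor genes 33.3% were called, against 33.1% of all genes. Among the NMDA receptor genes Grin2c rose, Grin2b fell and 5 did not pass, so that 28.6% were called. Grin2c (chromosome 11, 115249169 to 115267243, minus strand, mm10), which encodes a GluN2 subunit best known from cerebellar granule cells and glia, stood at 16.0 and 16.5 CPM in the libraries labelled knockout, against 6.81 and 7.06 CPM in control libraries. Both libraries labelled knockout were more than double either control, and the fold was 2.34 (log2 fold change 1.23 ± 0.10, edgeR quasi-likelihood test, adjusted p = 2.4e-13). Grin2b (chromosome 6, 135713233 to 136173511, minus strand), the main embryonic GluN2 subunit gene, had 21.6 and 21.8 CPM in the libraries labelled knockout, against 34.3 and 31.9 CPM in control libraries. It fell by 0.61 ± 0.06 on the log2 scale (adjusted p = 3.3e-10), and the groups stood well apart. Grin2a, the GluN2 gene that replaces much of Grin2b after birth, was scarce, at 1.66 and 1.65 CPM in the libraries labelled knockout, against 2.31 and 2.2003 CPM in control libraries, and did not pass (-0.44 ± 0.22, adjusted p = 0.126). Grin2d, at 8.91 and 9.66 CPM in the libraries labelled knockout, against 9.50 and 10.3 CPM in control libraries, overlapped between the groups (-0.10 ± 0.10, adjusted p = 0.499).

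The obligatory NMDA subunit gene Grin1 had 26.0 and 24.6 CPM in the libraries labelled knockout, against 25.3 and 25.1 CPM in control libraries. The groups overlapped (95% bounds of the fold: 0.920 and 1.10). Part of its exons, 13.5% by length, is shared with the antisense gene Grin1os, and the strand setting of the counting is not stated. Grin3a, a modulatory subunit gene, was measured at 29.0 and 30.5 CPM in the libraries labelled knockout, against 28.3 and 28.1 CPM in control libraries (0.07 ± 0.06, adjusted p = 0.362). Grin3b stayed near 0.5 CPM in every library, between 0.497 and 0.606 CPM, and shares 32.1% of its exon length with Tmem259 on the other strand. All 7 Grin genes together came to 103.8 and 105.3 CPM in the libraries labelled knockout, against 107.1 and 105.2 CPM in control libraries.

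Counts per kilobase of exon allow the 4 GluN2 genes to be set against each other. Grin2c made up 57.8% ± 0.299 of GluN2 transcript in the libraries labelled knockout and 31.9% ± 0.444 in control libraries (SD, n = 2 each). Grin2b made up 15.6% ± 0.369 in the libraries labelled knockout and 30.8% ± 1.95 in control libraries. Grin2d made up 24.9% ± 0.719 in the libraries labelled knockout and 34.4% ± 1.64 in control libraries. Grin2a held 1.65% ± 0.0516 in the libraries labelled knockout and 2.91% ± 0.132 in control libraries. By merged exon length Grin2b, Grin2c and Grin2d were thus close to one another in control libraries. In the libraries labelled knockout Grin2c exceeded the other 3 together. Shares are relative, so one can fall without a change in the level of that gene. In CPM Grin2d overlapped between the groups (-0.10 ± 0.10, edgeR, adjusted p = 0.499), and Grin2a did not pass. The shares rest on annotated lengths, 24842 bases for Grin2b and 5037 for Grin2c, and the length in use in these cells was not measured. With 2 libraries a group no exact permutation test can give a two-sided p under 0.333, and none was run on shares.

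**Figure D2:**
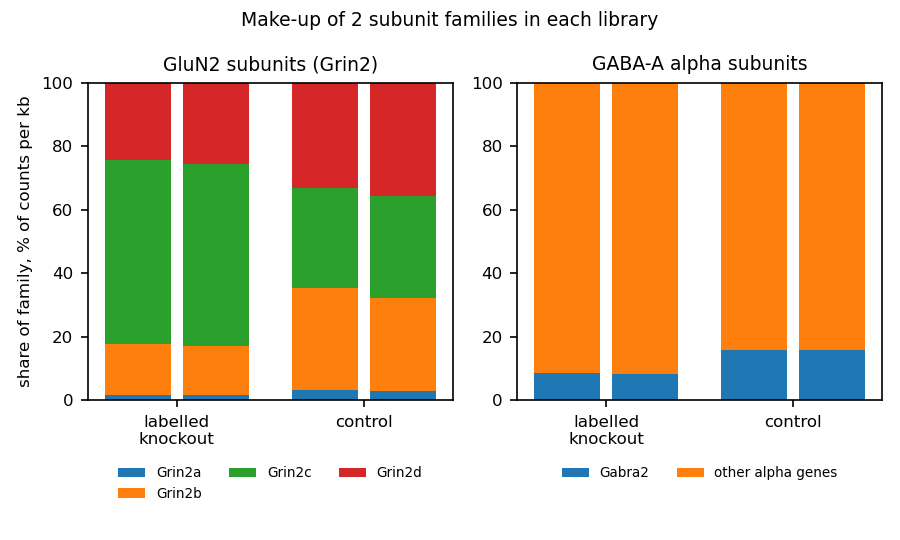
Stacked bars give, for each library (2 labelled knockout on the left, 2 control on the right of each panel), the share in percent of counts per kilobase of exon held by each GluN2 gene (left panel) and by Gabra2 against the other GABA-A alpha genes (right panel). Grin2c takes 57.8% of GluN2 transcript in the libraries labelled knockout and 31.9% in control libraries, and Gabra2 takes 8.34% of alpha transcript in the libraries labelled knockout and 15.7% in control libraries.

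Of the 4 AMPA receptor genes 1 fell and 3 did not pass, so that 25% were called, against 33.1% of all genes. Gria2, whose subunit makes AMPA channels nearly impermeable to calcium, was the most counted receptor gene of all, with 343 and 336 CPM in the libraries labelled knockout, against 338 and 329 CPM in control libraries. The groups overlapped, and the fold had 95% bounds of 0.982 and 1.06. Gria1 was at 91.7 and 92.9 CPM in the libraries labelled knockout, against 98.4 and 96.7 CPM in control libraries and missed the threshold (-0.08 ± 0.04, adjusted p = 0.0865). Gria4 overlapped between the groups, at 46.4 and 45.9 CPM in the libraries labelled knockout, against 43.0 and 46.9 CPM in control libraries. The X-linked Gria3 fell, with 42.4 and 40.01 CPM in the libraries labelled knockout, against 44.8 and 47.5 CPM in control libraries (-0.16 ± 0.05, adjusted p = 0.0114). Its call was lost with DESeq2 and when knockout-labelled replicate 2 (adjusted p = 0.133) or control replicate 2 (adjusted p = 0.146) was left out, in a range of 0.00456 to 0.182 over 12 alternatives.

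Of the 5 kainate receptor genes 3 rose and 2 did not pass, so that 60.0% were called, against 33.1% of all genes, and the call of Grik5 was the one of the 3 that held in all 12 alternatives. Grik5 (chromosome 7, 25009849 to 25072346, minus strand) encodes an auxiliary high-affinity subunit, and its level per kilobase of merged exon was 34.9 ± 0.0707 CPM per kb in the libraries labelled knockout and 31.4 ± 1.23 CPM per kb in control libraries. In CPM it stood at 180.2 and 181 in the libraries labelled knockout, against 158 and 167 in control libraries (0.15 ± 0.03, adjusted p = 1.5e-04). Grik2, a channel-forming subunit gene, had 35.3 and 33.9 CPM in the libraries labelled knockout, against 32.3 and 30.1 CPM in control libraries (0.15 ± 0.06, adjusted p = 0.0379). Grik3, another channel-forming subunit gene, had 52.6 and 47.3 CPM in the libraries labelled knockout, against 44.8 and 45.7 CPM in control libraries (0.14 ± 0.05, adjusted p = 0.0248). Groups did not overlap for these 3 genes, but the gaps for Grik2 and Grik3 were no larger than the wider spread within a group. Both calls were lost with DESeq2, without the low-count filter and without knockout-labelled replicate 1 (adjusted p = 0.236 for Grik2 and 0.494 for Grik3). Grik2 was also lost without control replicate 2 (adjusted p = 0.310), and Grik3 without control replicate 1 (adjusted p = 0.0925). Over 12 alternatives the adjusted p ran from 0.0131 to 0.333 for Grik2 and from 0.00184 to 0.494 for Grik3. Grik1 (-0.01 ± 0.10) and Grik4 (-0.03 ± 0.09), the second auxiliary subunit gene, overlapped between groups. The summed kainate level was 289.8 and 286 CPM in the libraries labelled knockout, against 258 and 266 CPM in control libraries.

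The delta receptor gene Grid1, whose product organizes synapses with cerebellins, did not pass. It had 25.1 and 25.5 CPM in the libraries labelled knockout, against 24.4 and 25.7 CPM in control libraries, with 95% bounds of the fold at 0.923 and 1.10.

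Among the metabotropic glutamate receptors 1 gene rose, 1 fell and 5 did not pass, so that 28.6% were called, against 33.1% of all genes. Both calls were in group II, the receptors that lower cyclic AMP and include Grm2 and Grm3. Grm3 (chromosome 5, 9485541 to 9725170, minus strand) fell to 47.4 and 48.0 CPM in the libraries labelled knockout, against 64.4 and 62.5 CPM in control libraries (-0.41 ± 0.04, edgeR quasi-likelihood test, adjusted p = 1.3e-09). No library of one group came near the other. Grm2 was at 17.1 and 18.5 CPM in the libraries labelled knockout, against 16.5 and 14.4 CPM in control libraries, and its rise was borderline (0.21 ± 0.08, adjusted p = 0.0489). It was lost in 6 of 12 alternatives, among them DESeq2 and the omission of knockout-labelled replicate 2 (adjusted p = 0.300) or control replicate 2 (adjusted p = 0.469), with a range of 0.0087 to 0.469. Grm5, the phospholipase C-coupled group I receptor of progenitors and astrocytes, was the most abundant receptor of this class, at 235 and 239.8 CPM in the libraries labelled knockout and 251 and 243 CPM in control libraries. Its groups lay side by side without overlap, the test did not pass (-0.06 ± 0.03, adjusted p = 0.131), and the fold had 95% bounds of 0.925 and 1.00.

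The group III genes Grm4, Grm7 and Grm8 had log2 fold changes between -0.25 and 0.06, with groups that overlapped. Grm6, a receptor of retinal bipolar cells, had 0 and 2 counts in the libraries labelled knockout and 3 in each control library and was not tested. The 8 genes summed to 330.2 and 341 CPM in the libraries labelled knockout, against 364 and 353 CPM in control libraries.

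**Figure D3:**
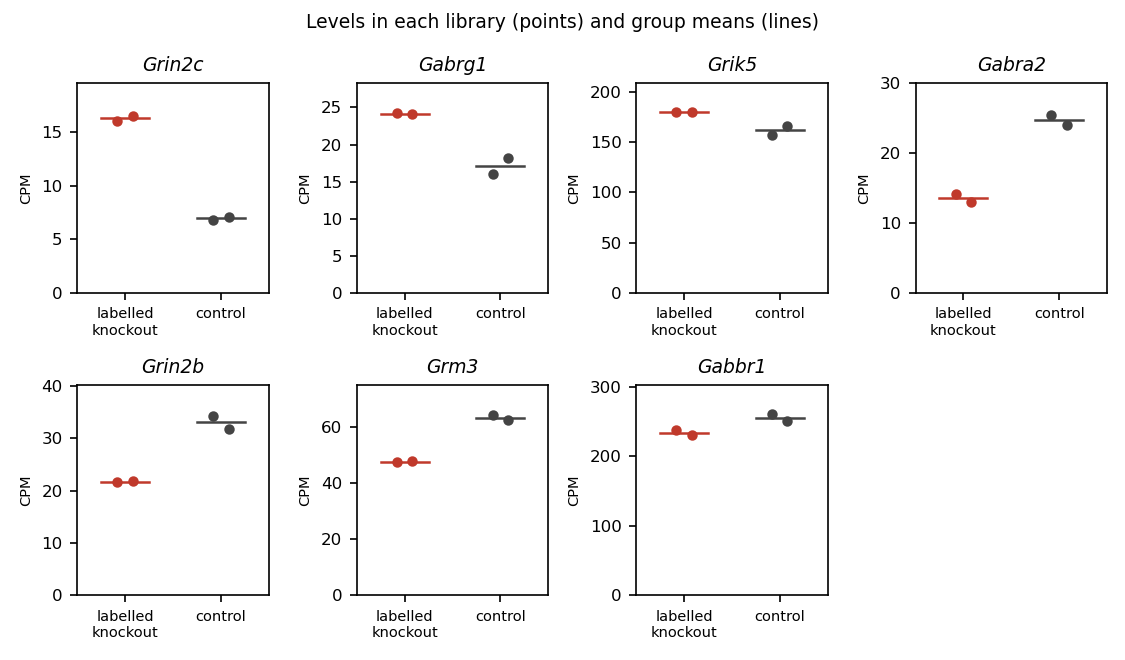
Points give the level in CPM (y axis, from 0) in each library, 2 labelled knockout on the left and 2 control on the right of each panel, and lines give group means, for 7 receptor genes whose call held in all 12 alternative analyses. Grin2c, Gabrg1 and Grik5 are higher in the libraries labelled knockout and Gabra2, Grin2b, Grm3 and Gabbr1 lower, with no overlap in any panel.

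Of the 19 GABA-A subunit genes 14 were tested, of which 5 rose, 3 fell and 6 did not pass. Called genes made up 57.1% of the tested ones, against 33.1% of all genes, and lay on both sides of 0. Among the alpha subunits, which set benzodiazepine sensitivity, Gabra2 changed most. It stood at 14.2 and 13.0 CPM in the libraries labelled knockout, against 25.5 and 24.03 CPM in control libraries, a ratio of 0.551 (log2 fold change -0.86 ± 0.08, edgeR quasi-likelihood test, adjusted p = 5.0e-12). The X-linked Gabra3 rose, at 25.8 and 25.1 CPM in the libraries labelled knockout, against 22.8 and 20.4 CPM in control libraries (0.24 ± 0.07, adjusted p = 0.0053). The Gabra3 call was lost with DESeq2 and without control replicate 2 (adjusted p = 0.145, range 7.7e-04 to 0.145).

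Gabra5, which per kilobase of exon was the most abundant alpha subunit gene at 9.27 ± 0.230 in the libraries labelled knockout and 8.56 ± 0.531 CPM per kb in control libraries, did not pass. Its libraries labelled knockout, at 28.1 and 27.1 CPM, lay just above the controls, at 26.6 and 24.3 CPM (0.12 ± 0.06, adjusted p = 0.160). Gabra4 overlapped between the groups (0.08 ± 0.09). Of all alpha subunit transcript per kilobase, Gabra2 made up 8.34% ± 0.259 in the libraries labelled knockout and 15.7% ± 0.0963 in control libraries (SD, n = 2 each). Gabra6, a gene of cerebellar granule cells, had 0 counts in all 4 libraries, which allows up to 0.106 to 0.115 CPM (3 counts per library, counting error only).

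Of the beta subunit genes Gabrb2 rose slightly, at 53.8 and 51.2 CPM in the libraries labelled knockout, against 50.0 and 45.6 CPM in control libraries (0.14 ± 0.05, adjusted p = 0.0279). Gabrb1 fell, at 5.80 and 5.42 CPM in the libraries labelled knockout, against 6.74 and 7.31 CPM in control libraries (-0.32 ± 0.12, adjusted p = 0.0427). The Gabrb2 call was lost with DESeq2, without the low-count filter, without knockout-labelled replicate 1 (adjusted p = 0.222) and without control replicate 2 (adjusted p = 0.401), in a range of 0.0034 to 0.401. That of Gabrb1 was lost in 7 of 12 alternatives, which include the omission of any single library (adjusted p of 0.0504 without control replicate 1 to 0.222 without control replicate 2), in a range of 0.0404 to 0.349.

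Gabrg1, a gamma subunit gene known from glia and subcortical neurons, rose and had 24.2 CPM in each library labelled knockout, against 16.0 and 18.2 CPM in control libraries (0.50 ± 0.07, adjusted p = 7.0e-07). Both libraries labelled knockout were above both controls. Gabrg3 stayed under 2 CPM in every library and did not pass (-0.21 ± 0.25).

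Of the remaining GABA-A genes Gabrd, an extrasynaptic subunit gene, was at 2.05 and 1.96 CPM in the libraries labelled knockout, against 1.51 and 1.35 CPM in control libraries, and did not pass in spite of a larger fold than most called genes (0.49 ± 0.24, adjusted p = 0.111). The X-linked Gabre and Gabrq were near or below 1.2 CPM and overlapped between groups. Gabrp and the rho subunit genes Gabrr1, Gabrr2 and Gabrr3 had at most 10 counts in any library and were not tested.

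GABA-A subunit genes lie in clusters, a feature the choice by name did not use. On chromosome 5 the genes lie in the order Gabrg1, Gabra2, Gabra4 and Gabrb1, and the outcome was mixed. Gabrg1 (70751047 to 70842617, minus strand, mm10) rose and its neighbour Gabra2 (70957597 to 71095849, minus strand) fell, the pair whose upstream windows are given above. Gabrb1 fell too, and Gabra4, which starts head to head with it and shares 46 bases of exon, did not pass. On the X chromosome Gabra3 rose, while Gabre and Gabrq beside it did not pass.

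**Figure D4:**
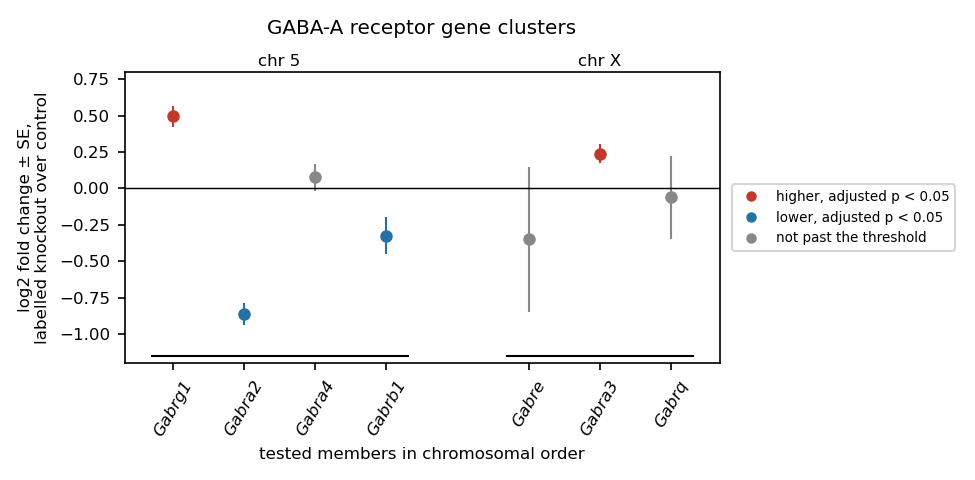
The plot gives log2 fold changes (y axis, libraries labelled knockout over control, bars ± SE) of the tested genes of the GABA-A gene clusters on chromosomes 5 and X in chromosomal order (x axis). On chromosome 5 Gabrg1 at 0.50 stands beside Gabra2 at -0.86.

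Both GABA-B receptor genes fell, where 18.1% of all genes tested were lower. Gabbr1 (chromosome 17, 37045966 to 37075067, plus strand), whose product binds GABA, stood at 238 and 230.0 CPM in the libraries labelled knockout, against 261 and 250.1 CPM in control libraries (-0.13 ± 0.03, adjusted p = 5.5e-04). Gabbr2, the partner that couples to G proteins, had 20.9 and 19.3 CPM in the libraries labelled knockout, against 24.4 and 23.3 CPM in control libraries (-0.24 ± 0.07, adjusted p = 0.0055). The groups did not overlap for either gene, with ratios of 0.916 for Gabbr1 and 0.845 for Gabbr2. The Gabbr2 call was lost with DESeq2 and without knockout-labelled replicate 2 (adjusted p = 0.0929, range 0.0028 to 0.133).

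Of 43 tested auxiliary subunit and scaffold genes of glutamate receptors 7 rose and 9 fell (median log2 fold change -0.01), a share of 37.2% called that is near the 33.1% of all genes. Shisa6, which holds AMPA receptors at synapses, fell to 34.8 ± 1.31 CPM in the libraries labelled knockout, against 65.5 ± 1.57 CPM in control libraries (-0.91 ± 0.05, adjusted p = 3.3e-18). Nptx2, a secreted pentraxin that clusters AMPA receptors, fell by 0.61 ± 0.04 and the AMPA auxiliary subunit gene Cacng5 by 0.41 ± 0.04 on the log2 scale. Dlgap3, a postsynaptic scaffold gene, rose by 0.53 ± 0.04, and the kainate auxiliary subunit gene Neto1 by 0.21 ± 0.05. The other kainate auxiliary subunit gene, Neto2, did not pass (0.04 ± 0.03, edgeR, adjusted p = 0.311). Neto1 and Neto2 are outside the rule for naming and were chosen after their values were seen. Without knockout-labelled replicate 2 the genes that fell numbered 5, and with DESeq2 2 rose and 5 fell.

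Of 24 auxiliary and scaffold genes of GABA receptors 5 rose and 19 did not pass (median 0.03), so that 20.8% were called, against 33.1% of all genes. Gabarap, a trafficking partner of the gamma subunit, was at 221 ± 3.76 CPM in the libraries labelled knockout and 195 ± 4.001 CPM in control libraries (0.19 ± 0.03, adjusted p = 2.6e-06), and its call held in all 12 alternatives. Lhfpl4, an auxiliary subunit gene of synaptic GABA-A receptors, rose by 0.15 ± 0.04, Gabarapl2 by 0.14 ± 0.05 and Trak1 by 0.09 ± 0.03. The calls of these last 3 were lost in 2 to 4 of the alternatives. The number that rose was 2 without knockout-labelled replicate 2 or control replicate 1 and 1 with DESeq2.

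Genes of glutamate and GABA synthesis, packaging and uptake numbered 20 tested, of which 4 rose and 8 fell (median log2 fold change -0.0038). The share called was 60.0%, against 33.1% of all genes, and the difference was not tested. The glial glutamate transporter gene Slc1a3 had 1144 and 1139 CPM in the libraries labelled knockout, against 1482 and 1446 CPM in control libraries (-0.36 ± 0.02, adjusted p = 1.6e-17). Glutamine synthetase (Glul) fell with it, by 0.30 ± 0.03, whereas the GABA transporter gene Slc6a11 rose to 268 ± 5.16 CPM in the libraries labelled knockout, against 191 ± 6.49 CPM in control libraries (0.49 ± 0.03, adjusted p = 1.3e-16). The chloride importer gene Slc12a2 fell by 0.32 ± 0.03 on the log2 scale. Its counterpart Slc12a5, which extrudes chloride in mature neurons, rose by 0.20 ± 0.05 (adjusted p = 8.5e-04) and was named after its values were seen.

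Other transmitter-gated channel genes of the glycine and nicotinic families were mostly scarce, with 9 of 21 tested, 2 risen and 1 fallen, a share of 33.3% called beside 33.1% of all genes. The glycine receptor beta subunit gene Glrb rose to 57.6 ± 0.0460 CPM in the libraries labelled knockout, against 45.9 ± 1.451 CPM in control libraries, and the nicotinic subunit gene Chrna4 to 35.7 ± 1.08 CPM in the libraries labelled knockout, against 21.1 ± 0.576 CPM in control libraries (0.76 ± 0.06, adjusted p = 5.9e-13). Glra2 did not pass (0.18 ± 0.08, adjusted p = 0.0796), although it did with upper quartile scaling and without knockout-labelled replicate 1 (adjusted p = 0.0478, range 0.0389 to 0.476). Chrnb4, under 1 CPM in every library, fell, a call lost without knockout-labelled replicate 2 (adjusted p = 0.174) or control replicate 2 (adjusted p = 0.0531), and with DESeq2 (range 0.0086 to 0.199).

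Markers of several cell types differed between the same libraries, and in bulk RNA fewer cells of a type and less RNA per cell cannot be told apart. The marker lists are not separate from the genes of synthesis, packaging and uptake. Slc1a2 is also an astrocyte marker, and Gad1, Gad2 and Slc32a1 are also interneuron markers. By marker list the share called ran from 42.9% (endothelium) to 100% (mural cell and fibroblast), against 33.1% of all genes tested. Neuronal markers were higher for 9 of 15 tested genes, with summed levels of 3395 to 3428 CPM in the libraries labelled knockout, against 3024 to 3045 CPM in control libraries. Interneuron markers rose for 3 and fell for 8 of 15 (378 to 391 CPM in the libraries labelled knockout, against 403 to 405 CPM in control libraries). Radial glial markers, the defining ones for the neural stem cell label, summed to 8347 to 8366 CPM in the libraries labelled knockout, against 9816 to 9906 CPM in control libraries, with 2 risen and 6 fallen of 12. Astrocyte markers rose for 2 and fell for 6 of 9 tested (2386 to 2387 CPM in the libraries labelled knockout, against 3278 to 3296 CPM in control libraries). Oligodendrocyte precursor markers rose for 6 and fell for 1 of 10 (1604 to 1643 CPM in the libraries labelled knockout, against 1446 to 1491 CPM in control libraries).

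Choroid plexus markers rose for 7 of 8, summing to 1364 to 1378 CPM in the libraries labelled knockout, against 214 to 221 CPM in control libraries. Mural cell and fibroblast markers rose for 1 and fell for 7 of 8 tested (60.6 to 64.1 CPM in the libraries labelled knockout, against 184 to 188 CPM in control libraries). Endothelial markers were at 14.9 to 16.1 CPM in the libraries labelled knockout, against 22.0 to 22.7 CPM in control libraries, with 1 risen and 2 fallen of 7 tested. Microglial markers fell for 5 of 6 tested and were near the floor in both groups (2.58 to 3.18 CPM in the libraries labelled knockout, against 6.55 to 7.77 CPM in control libraries). No marker was at 0 in all 4 libraries. The part of these shifts in the receptor results was not tested.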

How the data were processed

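The values are the authors' deposited raw counts per gene symbol, 1 table per library, whole numbers with no normalization. HISAT2 2.2.1 and HTSeq 0.12.4, next to DESeq2 1.26.0 and the build mm10, are named per the submitters' processing notes. For the counting, annotation and strand setting are not stated there. Each table's 5 summary lines (25.2% to 26.1% of entries) were left out.

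Genotypes were compared in R 4.3.3 with edgeR 4.0.16 over all genes. After filterByExpr and TMM scaling, quasi-likelihood F tests (legacy off) were run with Benjamini-Hochberg adjustment at 0.05. CPM use the scaled library sizes, and each SE is |log2 fold change| divided by √F. Levels were divided by merged exon length in GENCODE M21 (GRCm38, the assembly of mm10), which matched 95.7% of symbols. Upstream windows and their bases are from RefSeq, GRCm38.p6. A floor of 3 counts is 0.106 to 0.115 CPM.

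Replicates differed by more than sampling noise (chi-square per gene 1.96 in controls and 2.2 in the libraries labelled knockout, against 20.4 to 21.2 between groups, over genes with at least 20 counts). Reads carry no molecular identifiers. The receptor set, companion lists and marker lists were chosen with earlier results of these data known. Values are given for called receptor genes and for other tested ones above the median level. Those of Grin2a, Grin2d, Grin3b, Gabrd and other uncalled genes below that level were added outside this rule. Each companion list has values for up to 4 genes with the smallest p. Some receptor genes are counted in the totals but not reported here by name. The steps were tested on simulated counts. Alternatives were other scalings, filters, the legacy fit, DESeq2 1.42.0, a replicate block, the longest transcript as length, and leaving out each library.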

Additional observations from a re-analysis of the deposited data

How the results depend on the processing

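Of the 18 receptor genes called, 8 kept their call in all 12 alternatives, among them Grin2c, Grin2b, Grik5, Grm3, Gabra2, Gabrg1 and Gabbr1, and 10 lost it in at least 1. No called gene changed sign, and the 23 that did not pass stayed so in every alternative that tested them. Prrc2b was not called in any alternative. DESeq2-style size factors and total count scaling left the number of receptor genes that rose at 10 and that fell at 8, and upper quartile scaling gave 10 and 7. With DESeq2 as the test, 972 genes rose and 1551 fell of 15155 tested, and 42 receptor genes were tested. Among receptor genes 3 rose and 5 fell. Of ionotropic glutamate receptor genes 2 rose and 1 fell, and of GABA-A genes 1 rose and 2 fell. Of GABA-B genes 0 rose and 1 fell, and of metabotropic receptor genes 0 rose and 1 fell. By DESeq2, 2 glutamate receptor partners rose and 5 fell, and 1 GABA receptor partner rose and 0 fell. Of genes of synthesis and uptake 4 rose and 5 fell, and of glycine or nicotinic genes 2 rose and 0 fell. Without a low-count filter 6 receptor genes rose, of them 2 ionotropic, 4 GABA-A and 0 metabotropic, and 7 fell. Of GABA receptor partners 2 rose and 0 fell without this filter. With a minimum of 1 CPM in 2 libraries 0 metabotropic genes rose and 0 glycine or nicotinic genes fell, and with the legacy fit 0 metabotropic genes rose. The count of risen metabotropic genes is Grm2 alone. The cause of these differences was not tested.

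Leaving out each library in turn gave 6 to 9 risen receptor genes and 5 to 7 fallen. The ranges were 2 to 4 risen and 1 to 2 fallen for ionotropic, 0 to 1 risen for metabotropic, 3 to 5 risen for GABA-A and 1 to 2 fallen for GABA-B genes. Among partners 5 to 7 fell for glutamate receptors and 2 to 5 rose for GABA receptors, and 0 to 1 glycine or nicotinic genes fell. The replicate numbers of the labels are not said to pair samples, and deviations of same-numbered libraries had a correlation of -0.0165. With the replicate block 10 receptor genes rose and 8 fell, and over all genes 2443 rose and 2881 fell.

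With the longest transcript as length, Grin2c made up 55.0% of GluN2 transcript in the libraries labelled knockout and 29.7% in control libraries, Grin2b 14.9% (knockout-labelled) and 28.8% (control), Grin2d 28.2% (knockout-labelled) and 38.2% (control), and Grin2a 1.87% (knockout-labelled) and 3.23% (control). Gabra2 made up 9.16% of alpha transcript in the libraries labelled knockout and 17.1% in control libraries. Per-length levels thus depend on the length used, while the direction of each share was the same. For Grin2c, Grin2b and Gabra2 that direction could not change with length. Each had the highest or lowest fold of the genes it was set against. For Grin2b the merged and longest lengths are close, at 24842 and 24060 bases, so this alternative hardly varied its length. Depth limits scarce genes most: the 95% bounds of the fold were 0.391 and 1.57 for Gabre, against 0.809 and 1.08 for the better counted Grin2d.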
